A study of Mus musculus with 28 samples.

Results

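The interleukin-1 (IL-1) receptor family was followed through 7 genes, Il1r1, Il1r2, Il1rl1, Il1rl2, Il18r1, Il18rap and Il1rap, chosen by their gene symbols out of 23420 symbols listed per library. All 7 were present and passed the filter on low counts, which kept 13338 genes, although several passed only through the populations in which they were high. RNA-seq had been made from CD4 T cells of male mice aged 6 to 8 weeks that carried a Foxp3-gfp reporter allele, either wild type (WT) or Foxp3ΔCNS3-gfp, which lacks the conserved non-coding sequence 3 enhancer of Foxp3 (called KO here, as in the titles). From each genotype 4 populations were sorted: regulatory T (Treg) cells of the thymus, thymic CD4 single-positive cells labelled non-Treg (CD4SP), and 2 Treg populations of the spleen named rTreg and aTreg in titles that do not expand r and a, nor the m of mCD4SP. Every population had 3 WT and 4 KO libraries, 28 in all, and all mice carried the gfp reporter and were described as littermates. The labels do not tie each library to its own animal, so p-values measure only the spread between these libraries, which may in part be technical.

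Receptors of this family pair a ligand-binding chain with an accessory chain, and the joined intracellular domains recruit MyD88 and IRAK kinases towards NF-kB. IL-1 binds Il1r1 together with the accessory chain Il1rap, while Il1r2 binds IL-1 without signalling and acts as a decoy. Il1rl1 (ST2) binds IL-33 and also uses Il1rap, Il18r1 pairs with Il18rap to bind IL-18, and Il1rl2 binds IL-36 cytokines. ST2 marks tissue Treg cells and supports their growth in response to IL-33.

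In mouse, 6 of the 7 genes lie side by side on chromosome 1, all on the plus strand, within 477.6 kb (GRCm38, GENCODE M21). Il1r2 spans 40074079 to 40125231, Il1r1 40225080 to 40317257, and Il1rl2 40324610 to 40367562. Il1rl1 spans 40429570 to 40465415, Il18r1 40465552 to 40500854, and Il18rap 40515362 to 40551705. Il1rap is apart from them, on the plus strand of chromosome 16 at 26581704 to 26730117. The gap between Il1rl1 and Il18r1 is 136 bp, so reads that run through from one into the other cannot be told apart in gene counts, and the gap between Il18r1 and Il18rap is 14507 bp. Gene counts also merge the membrane and soluble forms of Il1rl1. The sequences upstream of the 3 neighbouring genes that were higher in KO Treg cells are shown first, because these genes adjoin and each rose in the mean over the Treg populations. They are RefSeq sequence of GRCm38.p6, plus strand, 5′ to 3′, with the motif match in capitals. The first lies at chr1:40429320-40429569, upstream of the outer Il1rl1 start. The second is the whole gap at chr1:40465416-40465551, and the third lies at chr1:40515112-40515361.
Il1rl1: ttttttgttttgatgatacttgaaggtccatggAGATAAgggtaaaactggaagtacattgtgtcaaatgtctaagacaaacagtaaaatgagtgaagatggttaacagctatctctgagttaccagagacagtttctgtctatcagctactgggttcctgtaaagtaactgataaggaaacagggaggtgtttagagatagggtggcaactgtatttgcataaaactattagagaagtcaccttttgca
Il18r1: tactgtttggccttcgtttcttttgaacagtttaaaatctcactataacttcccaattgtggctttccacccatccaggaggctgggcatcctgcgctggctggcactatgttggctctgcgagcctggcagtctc
Il18rap: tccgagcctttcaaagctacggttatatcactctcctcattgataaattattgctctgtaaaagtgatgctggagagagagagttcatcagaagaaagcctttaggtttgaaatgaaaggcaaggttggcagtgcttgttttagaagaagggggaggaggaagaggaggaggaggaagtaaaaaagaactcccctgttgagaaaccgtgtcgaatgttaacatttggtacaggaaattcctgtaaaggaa
Motifs were searched on both strands in the 250 bases before each start. The GATA motif AGATAA occurs in 9.99% of 32851 RefSeq promoter windows of that length. The RUNX motif TGTGGT occurs in 14% of them and the forkhead motif GTAAACA in 3.17%. An AP-1 motif with 1 free base occurs in 6.75% and an NF-kB motif in 1.41%. The printed Il1rl1 stretch holds 1 GATA match, which begins 217 bases before the start. At its inner start, a window that is not printed holds 1 RUNX, 1 forkhead and 1 GATA match. None of these letters occur in the windows of Il18r1 or Il18rap. A match describes the letters and does not show that a factor binds there.

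**Figure D1:**
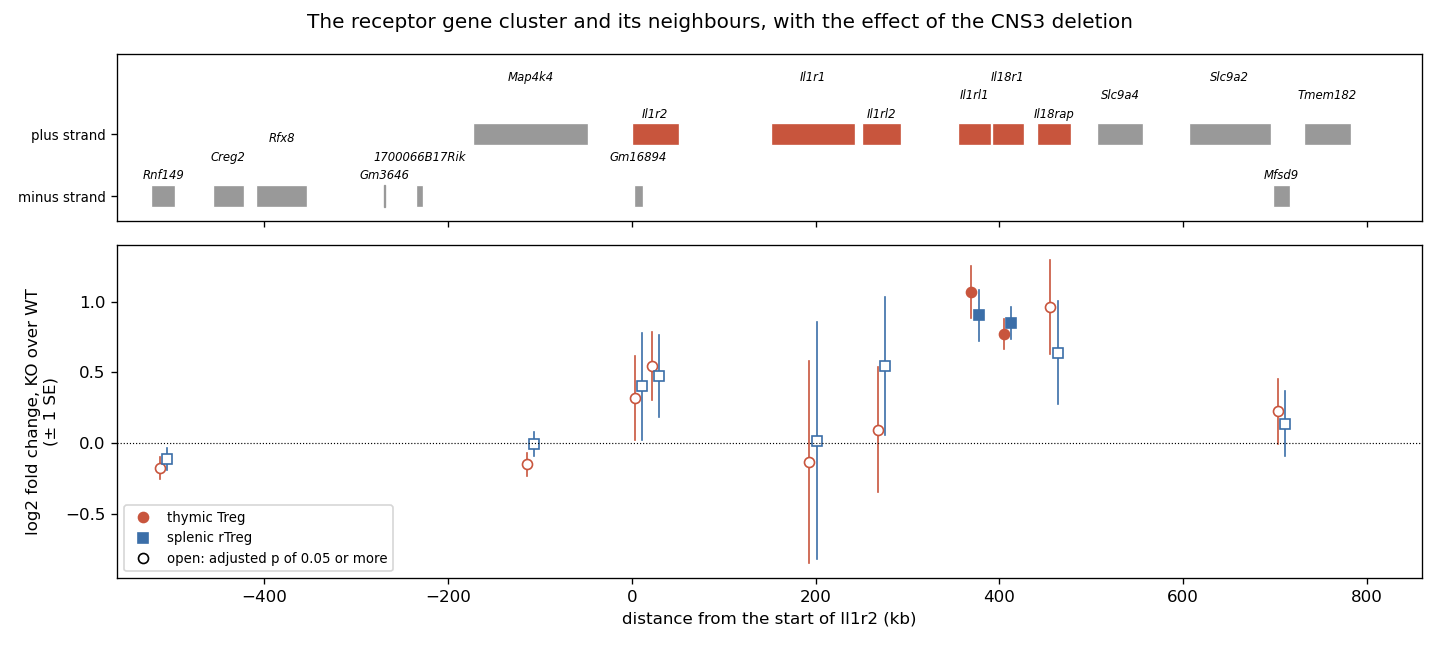
The upper panel draws the chromosome 1 receptor genes (red) and their neighbours (grey) to scale on each strand, by distance in kb from the start of Il1r2, and the lower panel plots the log2 fold change of KO over WT (± 1 SE) of each tested gene in thymic Treg (circles) and rTreg (squares) cells, filled where the adjusted p is under 0.05. The filled points are Il1rl1 and Il18r1, which nearly touch on the map.

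Gene counts per library ranged from 22037995 to 40754492, so that 3 counts, the floor used for an absent gene, corresponded to 0.0754 to 0.133 CPM (counts scaled to the size of each library). Foxp3, the gene whose enhancer was deleted, was read in all Treg libraries, at 579 to 671 CPM in WT and 446 to 614 CPM in KO. In CD4SP cells it was at 3.23 to 3.49 CPM in WT and 1.07 to 1.91 CPM in KO, with no overlap. Its mean KO effect over the 3 Treg populations was -0.23 on the log2 scale (SE 0.0502, edgeR adjusted p = 0.00757). The effect in CD4SP cells was -1.25 (SE 0.158, edgeR adjusted p = 8.27e-05). Summed markers of myeloid cells (11 genes) reached 273 to 388 CPM in WT thymic Treg cells and 419 to 984 CPM in KO, with libraries 1 and 2 of the KO group highest. In rTreg cells these sums were 120 to 129 CPM in WT and 106 to 132 CPM in KO, and in aTreg cells 308 to 382 CPM in WT and 224 to 253 CPM in KO. None of the 11 markers was at 0 in all libraries of a group. KO CD4SP library 2 stood apart, with a myeloid sum of 238 CPM where the other CD4SP libraries had 89.1 to 105 CPM. Reads outside annotated genes made up a smaller part of KO than of WT thymic Treg libraries, 42.3 to 45.0% against 46.3 to 49.3%. In bulk samples such as these, fewer cells of a type and less RNA per cell cannot be told apart.

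In WT cells the family separated the Treg populations from CD4SP cells and from each other. Between WT thymic Treg and CD4SP cells, 5 receptors were higher and 1 was lower in Treg cells, against a background of 48.3% of all genes past the test in either direction. The median log2 difference of the 7 was 3.24, beside 0.03 over all genes tested. From thymic Treg to rTreg cells, 1 rose and 3 fell (background 30.6%), with a median of -1.22 beside -0.01. From rTreg to aTreg cells, 5 rose and none fell (background 37.9%), with a median of 1.35 beside -0.01. KO cells gave the same 3 pairs of counts, 5 and 1, 1 and 3, and 5 and 0, against backgrounds of 56.5, 42.9 and 41.6%. These contrasts share groups, so their counts are not independent of each other. The family was chosen with earlier results of these data known. Several members also passed the count filter only through the populations in which they were high. The counts and medians are thus descriptions and not independent support. Myeloid marker sums moved with the populations, since 10 of 11 myeloid markers were higher in WT thymic Treg than in CD4SP cells, 10 were lower in rTreg than in thymic Treg cells and 10 were higher in aTreg than in rTreg cells. A fit with the myeloid sum as a covariate therefore cannot separate myeloid content from population in these contrasts, whether a call is kept or lost.

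**Figure D2:**
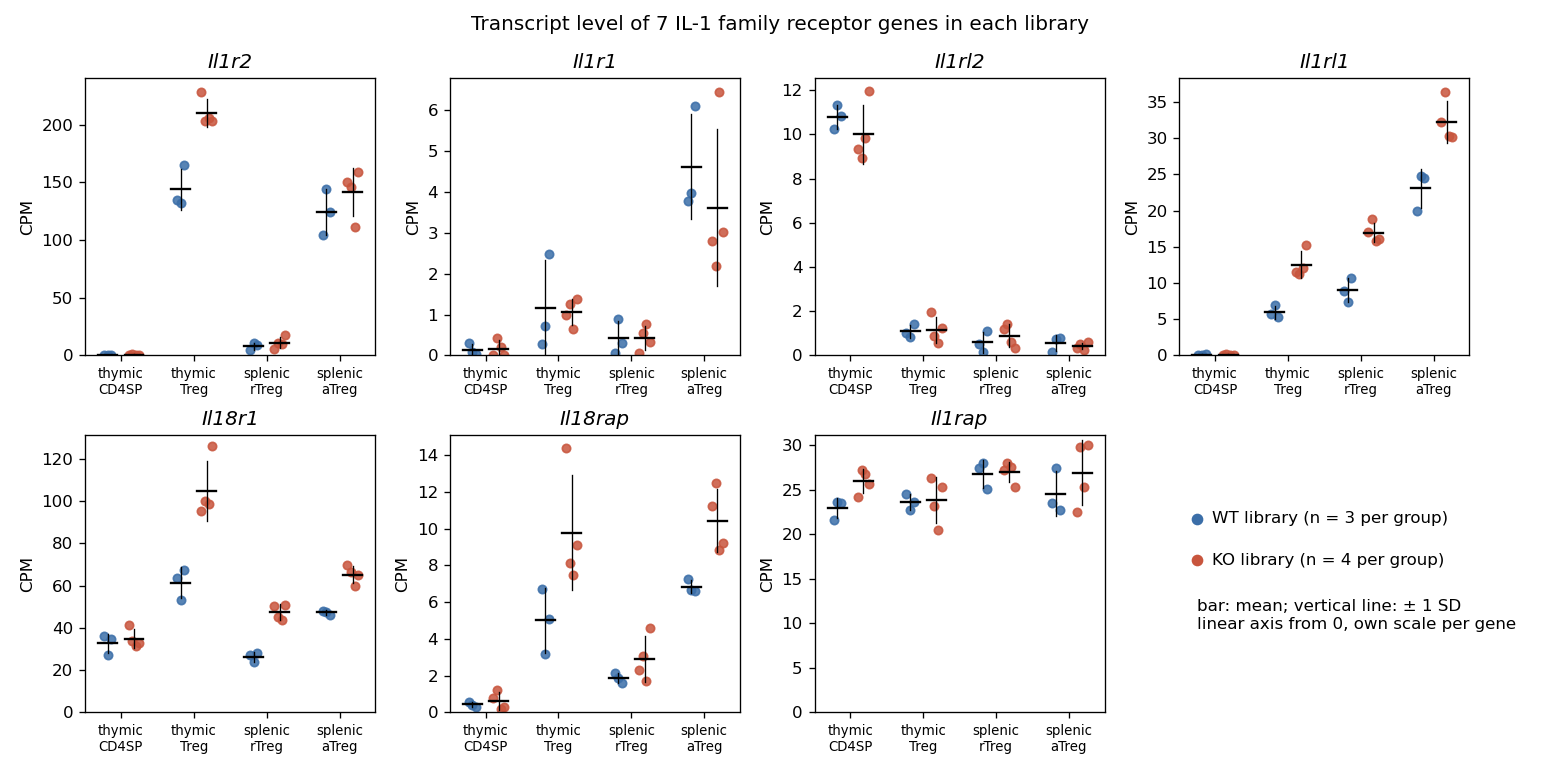
Level of each receptor gene in every library, in CPM on a linear axis from 0 with its own scale per gene, by population and genotype (points are libraries, horizontal bars group means and vertical lines ± 1 SD). Il1r2 spans the widest range, Il1rap stays between 20.5 and 30.1 CPM, and the KO points of Il1rl1 and Il18r1 lie above the WT points in the 3 Treg populations.

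Il1r2, the decoy, was the receptor with the highest level per kilobase of exon in thymic Treg and aTreg cells. In WT thymic Treg libraries it stood at 135, 132 and 165 CPM, and in CD4SP libraries at 0.371, 0.0504 and 0.161 CPM. Summed counts of 15813 against 18 gave a ratio of 836, with a 95% interval of 529 to 1411 that covers counting error only. In rTreg libraries it was 4.34, 10.7 and 8.74 CPM, a fall of -4.18 in log2 terms from thymic Treg cells (SE 0.306, adjusted p = 4.01e-11). In aTreg libraries it was back at 104, 144 and 124 CPM, which was 3.97 higher than in rTreg cells (SE 0.304, adjusted p = 3.34e-11). The aTreg and thymic Treg libraries overlapped. With the myeloid sum as a covariate, Il1r2 differed by 9.43, -3.995 and 3.76 in these 3 contrasts, all past the test. Neutrophils carry Il1r2 too, and their 6 listed markers summed to 0.0333 to 12.8 CPM in WT thymic Treg libraries.

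Il1r1, the signalling receptor for IL-1, was low throughout. WT thymic Treg libraries held 0.280, 0.732 and 2.49 CPM, rTreg libraries 0.0648, 0.890 and 0.299 CPM, and aTreg libraries 3.78, 3.98 and 6.11 CPM. CD4SP libraries held 8, 3 and 1 counts. The aTreg libraries lay above all rTreg libraries, with a log2 difference of 3.48 (SE 0.834, adjusted p = 0.00149). The difference between thymic Treg and CD4SP cells was 3.24 (SE 0.959, adjusted p = 0.00644), but the groups overlapped, and without WT thymic Treg library 3 it was 1.998 with an adjusted p of 0.116. With the myeloid covariate these differences were 2.75 and 2.49, and neither passed (adjusted p = 0.210 and 0.253). In WT thymic Treg cells the mean levels were 144 CPM for Il1r2 and 1.17 CPM for Il1r1. Their summed exon lengths, over all annotated transcripts, were 1908 and 6363 bp, which need not be those of the transcripts expressed. Per kilobase of these lengths, the mean level of Il1r2 was 411 times that of Il1r1 in WT thymic Treg cells, but 879 times without library 3. It was 63.2 times in WT rTreg cells, but 120 times without library 2, and 89.6 times in WT aTreg cells, 77.0 to 107 times without 1 library. Those ratios rest on 39 to 404 counts of Il1r1 per group.

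Il1rl1 (ST2) increased in steps across the Treg populations and was near absent from CD4SP cells. WT libraries held 5.72, 6.99 and 5.25 CPM in thymic Treg cells, 8.94, 7.43 and 10.7 CPM in rTreg cells and 19.9, 24.7 and 24.5 CPM in aTreg cells. No neighbouring Treg groups in this order overlapped. CD4SP libraries held 1, 0 and 5 counts, and 644 counts in thymic Treg cells against these 6 gave a ratio of 102 (95% counting interval 46.7 to 279). The rise from rTreg to aTreg cells was 1.35 on the log2 scale (SE 0.190, adjusted p = 1.97e-06). The rise from thymic Treg to rTreg cells was smaller, 0.60 (SE 0.195, adjusted p = 0.0200), and in 3 of the 6 fits that leave out 1 library it did not pass. With the myeloid covariate it was 0.63, also not past the test (adjusted p = 0.315).

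Il18r1, the ligand-binding chain for IL-18, was read in CD4SP as well as in Treg cells. WT CD4SP libraries stood at 36.1, 27.3 and 34.5 CPM, thymic Treg libraries at 63.7, 53.1 and 67.2 CPM, rTreg libraries at 27.3, 23.7 and 28 CPM and aTreg libraries at 48.2, 47.7 and 45.9 CPM. Thymic Treg cells were highest, and rTreg and CD4SP libraries overlapped. Its log2 difference was 0.91 between thymic Treg and CD4SP cells (SE 0.115, adjusted p = 1.55e-07), -1.22 between rTreg and thymic Treg cells (SE 0.116, adjusted p = 5.19e-09) and 0.84 between aTreg and rTreg cells (SE 0.116, adjusted p = 1.46e-06). Il18rap, the accessory chain, was at 6.74, 3.19 and 5.08 CPM in thymic Treg libraries, 2.17, 1.85 and 1.61 CPM in rTreg libraries and 7.26, 6.67 and 6.61 CPM in aTreg libraries. In CD4SP libraries it reached only 0.593, 0.429 and 0.295 CPM. Il18rap was 3.54 higher in thymic Treg than in CD4SP cells (SE 0.444, adjusted p = 1.48e-07) and 1.87 higher in aTreg than in rTreg cells (SE 0.379, adjusted p = 2.52e-04). Its fall from thymic Treg to rTreg cells was -1.42 (SE 0.377, adjusted p = 0.00487). With the myeloid covariate the contrasts of Il18rap with rTreg cells were -0.07 (from thymic Treg) and 0.38 (to aTreg), neither past the test, and only that with CD4SP cells passed, at 1.86.

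Il1rl2, the IL-36 receptor, ran the other way. It was at 10.2, 11.3 and 10.8 CPM in WT CD4SP libraries and at 0.169 to 1.41 CPM in the 9 WT Treg libraries, with no overlap. The log2 difference of thymic Treg from CD4SP cells was -3.30 (SE 0.460, adjusted p = 8.82e-07). Il1rap, the shared accessory chain, had group means of 23 to 27 CPM in all 8 groups, and each group overlapped its neighbour in the order of levels. None of its population or genotype contrasts passed the test.

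Loss of CNS3 went with higher levels of the IL-33 receptor and of the IL-18 receptor in Treg cells. In thymic Treg cells 2 of the 7 receptors rose and none fell, Il1rl1 and Il18r1, where 9.34% of all genes passed in either direction and 4.21% rose. In rTreg cells Il1rl1 and Il18r1 rose again, where 0.135% of genes passed and 0.0825% rose. No receptor passed in aTreg cells, where 0.03% of genes did, or in CD4SP cells, where 0.195% did. At an unadjusted p under 0.05 in edgeR the aTreg contrast held 2 receptors, Il1rl1 and Il18r1, and 6.73% of all genes, and the CD4SP contrast held no receptor and 6.21% of genes. With DESeq2 1 receptor, Il18r1, passed in aTreg cells, where 0.106% of genes with an adjusted p did, and none in CD4SP cells, where 0.421% did. Averaged over the 3 Treg populations 3 rose, Il1rl1, Il18r1 and Il18rap, where 4.66% of genes passed and 2.39% rose. The median log2 difference of the 7 in that average was 0.40, beside 0.01 over all genes tested. Since the family was chosen with earlier results of these data known, these counts and medians are descriptions.

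KO libraries lay wholly above WT libraries for 4 receptors in thymic Treg cells (Il1r2, Il1rl1, Il18r1 and Il18rap), where 11.7% of all genes did so. This held for 2 in rTreg cells (Il1rl1 and Il18r1; 4.09% of genes), 3 in aTreg cells (Il1rl1, Il18r1 and Il18rap; 4.1%) and 1 in CD4SP cells (Il1rap; 2.5%).

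Il1rl1 in KO thymic Treg libraries was at 11.5, 11.3, 12 and 15.2 CPM, against the 5.25 to 6.99 CPM of WT. The means were 12.5 ± 1.84 (SD, n = 4) and 5.99 ± 0.898 (SD, n = 3), a log2 difference of 1.07 (SE 0.184, adjusted p = 6.90e-04). KO thymic Treg libraries lay above all WT rTreg libraries as well. In KO rTreg cells Il1rl1 was at 17.1, 18.8, 15.8 and 16.1 CPM, a mean of 17 ± 1.37 (SD, n = 4) against 9.03 ± 1.65 (SD, n = 3), with a log2 difference of 0.91 (SE 0.180, adjusted p = 0.0320). That call was less firm, since it did not pass in 5 of the 7 fits without 1 library (adjusted p up to 0.282, difference 0.78 to 1.05). These were the fits without WT rTreg library 1 or 2 or without KO rTreg library 1, 2 or 4. In KO aTreg cells it was at 32.2, 36.4, 30.3 and 30.2 CPM, all above the 19.9 to 24.7 CPM of WT, with a log2 difference of 0.49 (SE 0.172, adjusted p = 0.556). KO CD4SP libraries held 3, 5, 1 and 0 counts. The mean over the Treg populations was 0.82 (SE 0.103, adjusted p = 1.66e-05, 95% interval 0.61 to 1.03). Differences between the KO effects of populations did not pass for Il1rl1: thymic Treg minus rTreg was 0.16 (95% interval -0.36 to 0.68) and aTreg minus rTreg was -0.42 (-0.92 to 0.09). Thymic Treg minus CD4SP was 0.68 (95% interval -1.21 to 2.56). That contrast could not be resolved, since CD4SP cells held 6 counts in WT and 9 in KO.

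Il18r1 in KO thymic Treg libraries was at 95.1, 100, 98.4 and 126 CPM, a mean of 105 ± 14.2 (SD, n = 4) against 61.3 ± 7.35 (SD, n = 3) in WT. The log2 difference was 0.77 (SE 0.107, adjusted p = 5.29e-05). In KO rTreg cells it was at 50.5, 45.1, 43.6 and 50.7 CPM, a mean of 47.5 ± 3.63 (SD, n = 4) against 26.3 ± 2.29 (SD, n = 3), and the log2 difference was 0.85 (SE 0.110, adjusted p = 1.84e-04). KO rTreg libraries thus overlapped the WT aTreg libraries, at 45.9 to 48.2 CPM. In KO aTreg cells it was at 69.5, 66.5, 59.9 and 64.9 CPM, above all WT libraries, with a log2 difference of 0.46 (SE 0.107, adjusted p = 0.190). This last difference passed in only 3 of 16 alternative fits. They were DESeq2 (adjusted p = 0.0416), a fit of the aTreg libraries alone (0.0483) and the proportion of reads outside genes as a covariate (0.00405). None of the 7 fits without 1 library passed (adjusted p up to 0.471). The mean over the Treg populations was 0.70 (SE 0.0624, adjusted p = 7.10e-08).

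No Il18r1 difference passed in CD4SP cells. Their KO libraries were at 41.3, 33.9, 31.6 and 32.9 CPM, overlapping WT, with a log2 difference of 0.10 (95% interval -0.12 to 0.32). Thymic Treg minus CD4SP was 0.67 for the KO effect itself (SE 0.151, adjusted p = 0.0297), the only receptor past that test, where 0.615% of genes passed. In a fit of the thymic groups alone its adjusted p was 0.125, and it was lost in 6 of the 14 fits without 1 library. Those were the fits without KO CD4SP library 3 or 4, WT CD4SP library 1 or 3, or WT thymic Treg library 1 or 2. For aTreg minus rTreg, Il18r1 gave -0.39 (95% interval -0.70 to -0.07, unadjusted p = 0.0173, adjusted p = 1), and no gene passed in that comparison (0% called). No receptor passed for thymic Treg minus rTreg, where 0.03% of genes did.

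Il18rap in KO thymic Treg libraries was at 14.4, 8.12, 7.50 and 9.12 CPM, above all WT libraries, with a log2 difference of 0.96 (SE 0.334, adjusted p = 0.0670). In KO rTreg cells it was at 2.29, 3.07, 1.71 and 4.58 CPM and overlapped WT, with a difference of 0.64 (SE 0.364, adjusted p = 0.858). KO aTreg libraries, at 11.2, 12.5, 8.85 and 9.20 CPM, again lay above WT, with a difference of 0.61 (SE 0.331, adjusted p = 0.789). Only the mean over the 3 populations passed, at 0.74 (SE 0.198, adjusted p = 0.0291). It did not pass in 6 of the 21 fits without 1 library (KO thymic Treg library 1, KO rTreg library 4, KO aTreg library 2, WT thymic Treg library 2, WT rTreg library 3 or WT aTreg library 2, adjusted p up to 0.0741). It also missed without KO thymic Treg libraries 1 and 2 (0.0763) and with the proportion of reads outside genes as a covariate (0.84, adjusted p = 0.0768). This mean treats the libraries as independent, and with libraries of the same genotype and number as a correlated block, in limma voom, it was 0.71 (adjusted p = 0.0279). With the same block the thymic Treg difference of Il18rap passed, at 0.96 (adjusted p = 0.00720). That difference passed in 4 of 17 alternative fits and in none of the 7 without 1 library (adjusted p up to 0.266).

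Of 11 myeloid markers 4 were past the test and higher in KO thymic Treg cells, Itgam, Fcgr3, Cst3 and Cd68. Lyz2, at 134.9 CPM in WT and 348.4 CPM in KO, and Csf1r, at 9.56 and 19.3 CPM, were not past it. With the summed log2 CPM of the 11 as a covariate, the thymic Treg difference was 1.06 for Il1rl1 (adjusted p = 0.00543), 0.78 for Il18r1 (adjusted p = 2.33e-04) and 0.40 for Il18rap (adjusted p = 0.471). Without KO libraries 1 and 2, which had the highest sums, it was 1.19 for Il1rl1 (adjusted p = 0.00196) and 0.87 for Il18r1 (adjusted p = 1.86e-04). With the proportion of reads outside genes as a covariate it was 1.36 for Il1rl1 (adjusted p = 0.0213) and 1.19 for Il18r1 (adjusted p = 1.47e-06). Mast cells and basophils carry ST2 too. Their 9 listed markers summed to 86.1 to 96.5 CPM in WT thymic Treg libraries and 54.1 to 79.8 CPM in KO, of which Kit made up a mean of 88.8 and 65.4 CPM. Cpa3 had 129 and 119 counts over the WT and KO groups, and Hdc had a mean of 0.452 and 1.16 CPM. Ms4a2, Mcpt4, Tpsb2 and Cma1 were at 0 in the WT group, and Fcer1a, Ms4a2, Mcpt4, Mcpt8 and Tpsb2 in the KO group. None of the 5 tested markers of this list passed, and their part in the Il1rl1 difference was not tested.

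**Figure D3:**
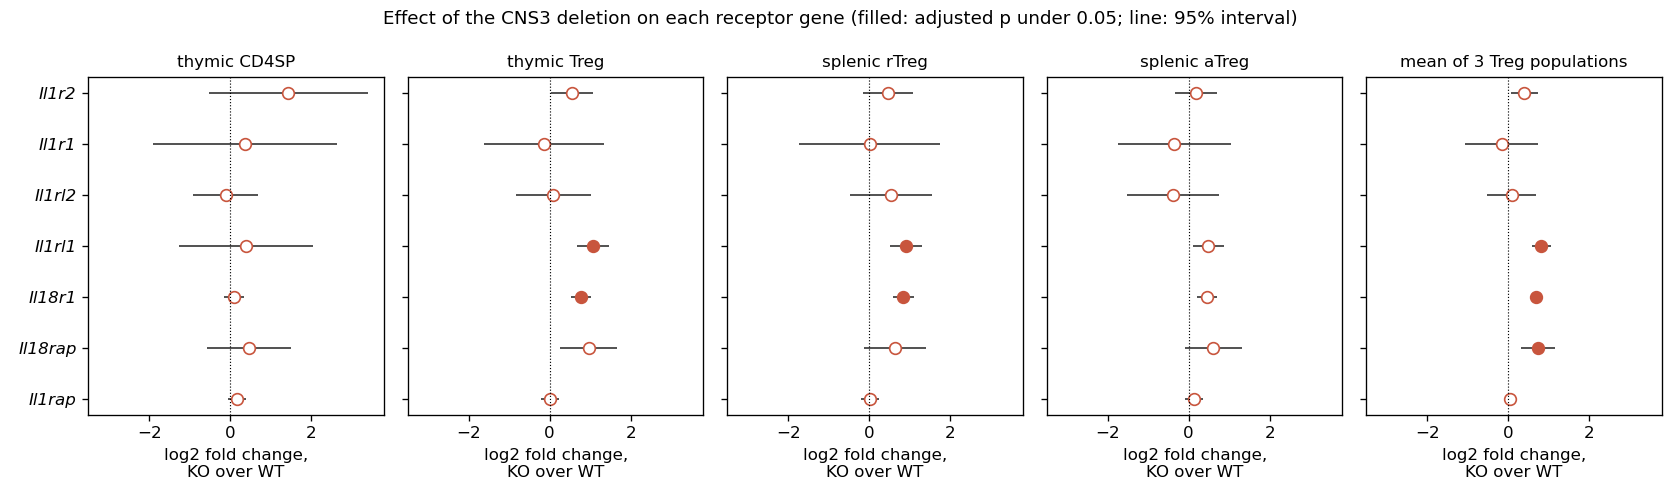
Log2 difference between KO and WT for each receptor in each population, and for the mean of the 3 Treg populations, with 95% intervals from the edgeR fit as lines and filled points where the adjusted p is under 0.05. Il1rl1 and Il18r1 lie to the right of 0 in all 3 Treg populations, and Il1rap stays near 0.

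Il1r2 in KO thymic Treg libraries was at 229, 203, 205 and 203 CPM, a mean of 210 ± 12.4 (SD, n = 4) against 144 ± 18.1 (SD, n = 3) in WT, with no overlap. The log2 difference of 0.55 (SE 0.241) did not pass, with an adjusted p of 0.147. It passed in only 3 of 17 alternative fits (adjusted p up to 0.886). They were limma voom (0.0130, and 0.0128 with the correlated block) and a fit of the thymic Treg libraries alone (0.00614). None of the 7 fits without 1 library passed (adjusted p up to 0.330). KO rTreg libraries, at 5.84, 10.8, 9.64 and 17.6 CPM, and KO aTreg libraries, at 150, 146, 111 and 159 CPM, overlapped their WT groups, with differences of 0.47 (adjusted p = 0.888) and 0.19 (adjusted p = 0.950). In CD4SP cells Il1r2 was at 0.164, 1.37, 0.315 and 0.137 CPM in KO, where library 2 also had the highest neutrophil marker sum, 49.1 CPM against at most 7.57 CPM in the other CD4SP libraries. The 6 listed Treg markers summed to 574 CPM in library 2, against 359 to 419 CPM in the other KO and 300 to 308 CPM in the WT CD4SP libraries. Of these 6, 3 were past the test and higher in KO CD4SP cells and 1, Foxp3, was lower, where 0.195% of all genes passed. The myeloid, mast cell, dendritic, B cell, and CD8 T and NK sums of library 2 were also highest. Its T cell sum and its stromal and epithelial sum were lowest. The part of these markers in that Il1r2 value was not tested.

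The remaining receptors showed no KO difference past the test. Il1r1 was at 0.993, 1.25, 0.638 and 1.38 CPM in KO thymic Treg libraries and 2.80, 2.19, 6.46 and 3.02 CPM in KO aTreg libraries, overlapping WT in both. Its mean difference over the Treg populations was -0.16, with a wide 95% interval of -1.04 to 0.73. Il1rl2 averaged 0.09 (95% interval -0.50 to 0.67), and in CD4SP cells, its main site here, KO libraries at 9.32, 8.94, 9.83 and 11.9 CPM overlapped WT. Il1rap averaged 0.05 with a narrow 95% interval of -0.06 to 0.17. Its KO CD4SP libraries, at 24.2, 27.2, 26.8 and 25.7 CPM, lay above the WT libraries at 21.7, 23.7 and 23.6 CPM, with a difference of 0.18 (adjusted p = 0.873).

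Levels per kilobase of exon (CPM divided by the summed exon length) show how the family is made up in each population. Il1r2 took 81.8% ± 1.32 (SD, n = 3) of the summed level in WT thymic Treg cells and 79.0% ± 2.24 (SD, n = 3) in aTreg cells, but 29.6% ± 9.99 (SD, n = 3) in rTreg cells and 0.925% ± 0.739 (SD, n = 3) in CD4SP cells. Il18r1 took the largest share in WT CD4SP cells, 63.9% ± 3.75 (SD, n = 3), and in rTreg cells, 40.2% ± 6.54 (SD, n = 3). Il1rap and Il1rl2 took 19.2% and 15.1% in WT CD4SP cells. KO shares were close in thymic Treg cells, at 80.0% ± 2.31 (SD, n = 4) for Il1r2 and 15.8% ± 2.21 (SD, n = 4) for Il18r1. In KO rTreg cells Il1rap took 11.5% ± 1.76 (SD, n = 4) against 17.4% ± 2.47 (SD, n = 3) in WT. The summed level per kilobase was 138 ± 6.38 (SD, n = 4) in KO and 92.1 ± 10.8 (SD, n = 3) in WT thymic Treg cells, and 21.1 ± 2.84 (SD, n = 4) against 13.7 ± 1.43 (SD, n = 3) in rTreg cells. Shares and sums were given as descriptions, without a test.

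**Figure D4:**
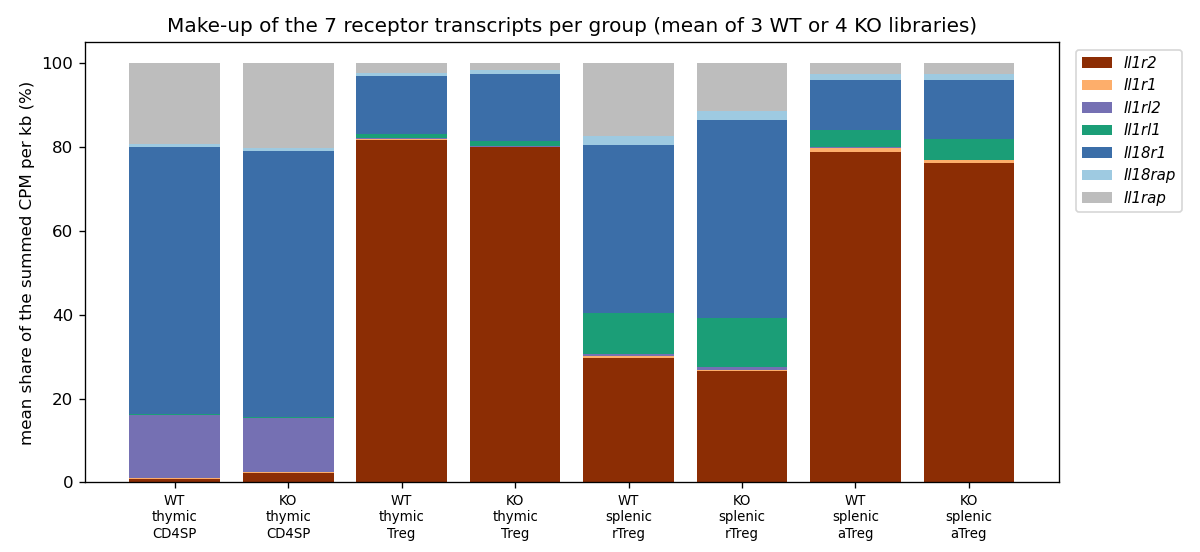
Share of each receptor in the summed per-kilobase level of the family, in percent, for the 8 groups (stacked means of 3 WT or 4 KO libraries). Il1r2 fills most of the bar in thymic Treg and aTreg cells, and Il18r1 most of it in CD4SP cells.

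Lists of ligands, signalling genes and genes linked to each cytokine gave the setting of these changes. In KO thymic Treg cells, where 9.34% of all genes passed and 4.21% rose, 3 of 6 tested ligand and antagonist genes rose. Il18bp, which traps IL-18, went from 11.1 to 18.1 CPM (log2 difference 0.70, SE 0.200, adjusted p = 0.0253), and Il18 itself from 2.23 to 4.37 CPM (0.97, SE 0.291, adjusted p = 0.0341, groups overlapping). Il33 passed at a very low level, 4 counts over the WT group and 62 over KO (3.62, SE 0.880, adjusted p = 0.0135). Beside these, the myeloid markers above and 1 of 4 tested stromal and epithelial markers, Col3a1, were higher in KO thymic Treg libraries. The 6 listed stromal and epithelial markers together went the other way, at 293 to 335 CPM in WT and 249 to 291 CPM in KO. The part of these cell types in the ligand changes was not tested. Il18 passed in 8 of 17 alternative fits and Il18bp in 9, and Il33 in 7 of the 12 that gave it a value (adjusted p up to 0.600).

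Of 23 tested genes for shared signalling, Casp1, the protease that matures IL-1 and IL-18, rose from 14.5 to 23.0 CPM (0.66, SE 0.182, adjusted p = 0.0215). Irak2, a kinase of the receptor complex, fell from 121 to 93.7 CPM (-0.37, SE 0.101, adjusted p = 0.0197), and Peli1, a ubiquitin ligase of the same pathway, from 198 to 168 CPM (-0.24, SE 0.0689, adjusted p = 0.0251). The other 20 did not pass, and 3 of 23 is near the 9.34% of all genes. Among 9 tested genes of the IL-33 and type 2 side, 4 rose. Klrg1, a surface receptor of differentiated Treg cells, went from 9.13 to 19.9 CPM (1.13, SE 0.209, adjusted p = 0.00134), and Il10, a suppressive cytokine, from 2.78 to 5.28 CPM (0.91, SE 0.270, adjusted p = 0.0325). The chemokine receptor Ccr8 rose by 0.42 (SE 0.101, adjusted p = 0.00986) and the nuclear receptor Rora by 0.43 (SE 0.140, adjusted p = 0.0490). Cxcr3, a chemokine receptor of the type 1 side, was 1 of 7 tested genes on the IL-18 and IL-12 list to rise, from 25.5 to 58.4 CPM (1.19, SE 0.182, adjusted p = 1.66e-04). None of 5 type 17 genes and not Sigirr, a receptor of the same family that dampens signalling, passed.

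These calls were uneven in strength. Cxcr3 and Klrg1 passed in 16 of 17 alternatives each, Ccr8 in 13, Casp1 in 11, Irak2 and Peli1 in 10 each, Rora in 8 and Il10 in 7. In rTreg cells only Ccr8 of these lists rose, from 27.8 to 43.7 CPM (0.65, SE 0.107, adjusted p = 0.00331), and in aTreg cells none passed. In CD4SP cells Ccr6 rose from 0.556 to 3.12 CPM (2.47, SE 0.326, adjusted p = 1.19e-04), far below its 277 CPM in WT thymic Treg cells, and it did not pass with limma voom, with or without the correlated block, or in a fit of the CD4SP libraries alone. Averaged over the Treg populations, Casp1 (0.53), Ccr8 (0.34), Rora (0.34) and Cxcr3 (0.55) rose, each past the test in 31 of 31 alternatives.

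Across WT populations the counts of these lists stand beside the shares of all genes past the test, 48.3% between thymic Treg and CD4SP cells, 30.6% from thymic Treg to rTreg cells and 37.9% from rTreg to aTreg cells. Between thymic Treg and CD4SP cells, 4 of 6 ligand genes, 9 of 23 signalling genes, 8 of 9 type 2 genes, 6 of 7 IL-18 and IL-12 genes, 4 of 5 type 17 genes and Sigirr were higher in Treg cells, while 2 signalling genes and 1 type 2 gene were lower. The 11 of 23 signalling genes past the test are near the share of all genes. Ccr6 (8.94), the kinase gene Map3k8 (3.10), Irak2 (2.57) and Peli2 (9.67) had the smallest p. From thymic Treg to rTreg cells 10 signalling genes and 2 IL-18 and IL-12 genes rose, and 3 ligand, 2 signalling, 5 type 2 and 3 type 17 genes fell. Ccr8 (-2.46), Ccr6 (-2.64) and Rora (-1.48) fell and Nfkbiz, an NF-kB cofactor, rose (0.78). From rTreg to aTreg cells 4 ligand, 3 signalling, 7 type 2, 5 IL-18 and IL-12 and 5 type 17 genes rose, and 9 signalling genes and 1 IL-18 and IL-12 gene fell. The smallest p went to Ccr8 (2.82), Klrg1 (4.29), Il10 (4.58) and Cxcr3 (2.91).

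The genes whose log2 CPM followed each receptor most closely over the 28 libraries were listed as a description. For Il1rl1 they were Slc4a7, Rabgap1l, Gbp1, Nt5e and Glt28d2 (r 0.987 to 0.991). For Il18r1 the closest, Cpne7, Slc16a6, Col1a2, Bcl2a1d and 5430421N21Rik, reached only 0.870 to 0.878. Il1r2 was followed by Gm16894, Penk, Ccl5, Tnfrsf9 and Ptpn5 (0.980 to 0.983), and Il18rap by Bhlhe41, Plcb4, Anxa4, Ccl5 and Pbx4 (0.961 to 0.967). Il1rap had no close match, with 0.620 to 0.635 for Ept1, Heatr1, Ikbkg, Hist1h3f and Snora75. Such values are set mostly by the 4 populations, which all libraries share. Between receptors, r was 0.95 for Il1r2 with Il18rap, -0.91 for Il1rl1 with Il1rl2 and 0.53 for the adjoining Il1rl1 and Il18r1, and within groups the last was 0.43.

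None of the 5 other tested genes within 500 kb of a receptor (Rnf149, Map4k4, Gm16894, Mfsd9 and Cldn1) passed in any KO against WT comparison. Rnf149 and Map4k4, upstream of Il1r2, moved between WT populations. Gm16894, an antisense gene on the minus strand at 40076228 to 40085851, lies inside the annotated span of Il1r2 and begins 241 bp before the RefSeq start of Il1r2. It was 8.03 higher in WT thymic Treg than in CD4SP cells, -2.83 in rTreg against thymic Treg cells and 3.44 in aTreg against rTreg cells on the log2 scale. No source used here gives the strand setting of the counting, so reads of Gm16894 and Il1r2 may be shared.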

How the data were processed

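Total RNA was extracted with TRIzol, amplified with SMART and sequenced as read pairs on a HiSeq instrument, per the labels' protocols. Trimmomatic, STAR and HTSeq were used with mm10, per the submitters' processing notes, which give no versions. The authors deposited raw counts per gene symbol, not normalised. HTSeq's summary lines did not enter library sizes, and reads outside genes were 42.3 to 49.7% of assigned, ambiguous and unassigned reads. No pair of libraries of a group agreed within sampling noise (chi-square per degree of freedom 7.08 to 37.6).

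All 28 libraries entered 1 quasi-likelihood fit of edgeR 4.0.16 (R 4.3.3) with 8 group means, TMM scaling and filterByExpr (minimum count 10), with 20 residual degrees of freedom. P-values were adjusted by Benjamini-Hochberg over 13338 genes at a threshold of 0.05, two-sided. Levels are CPM on TMM-scaled sizes. Alternatives used RLE scaling, no filter, DESeq2 1.42.0, limma voom 3.58.1, only the groups compared, a replicate block, a correlated block of libraries with the same genotype and number (limma voom, chosen after seeing the data), marker or read-share covariates, and fits without 1 library. The edgeR fit and the correlated block were also run on simulated counts, drawn independently for each library. That simulation held no link between same-numbered libraries, so it cannot show how the fits behave with such links. Likeness used log2 CPM with a prior count of 2. Replicate numbers come from the titles. Deviations of same-numbered libraries of 1 genotype correlated above 0.1 in every pair for WT thymic Treg with CD4SP cells (0.107 to 0.133). The same held for KO rTreg with aTreg cells (0.121 to 0.232). In the other contrasts at least 1 pair was at or under 0.1. The main fit held no pairing term for any contrast, so its p-values ignore such pairs. The replicate block entered only as an alternative, for every comparison. Named genes are the receptors, Foxp3, pathway genes past the test in a KO comparison, up to 4 per WT population contrast by smallest p, and the 5 most alike genes per receptor. The members and lists were chosen with earlier results of these data known. Adgre1 and Ly6g were not analysed here.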

Additional observations from a re-analysis of the deposited data

Results flagged for a closer look

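In a group of 4 libraries, a value is listed here when its gap to the nearest other library is over 0.829 of the group's range. Each set tested was 1 receptor in 1 KO group, as WT groups held only 3 libraries and were not tested. Of 28 sets tested this way 3 were listed, and chance alone gives about 1 in 20. Il1r2 in KO CD4SP library 2 was 1.37 CPM, where the other 3 KO libraries had at most 0.315 CPM. That library also had the highest marker sums of its group for Treg, myeloid, neutrophil and other listed cell types, though not for T cells. Il1r2 in KO thymic Treg library 1 was 229 CPM, above the 203 to 205 CPM of the other 3. Il18r1 in KO thymic Treg library 4 was 126 CPM, above the 95.1 to 100 CPM of the other 3. Library 4 had the lowest myeloid sum of its group, 419 CPM. The KO effect on Il18r1 differed between thymic Treg and CD4SP cells by 0.67 on the log2 scale, tested as a difference of effects.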

How the results depend on the processing

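Of 1488 single-gene values under alternatives, 1350 kept their direction and side of the threshold, 114 lost their call, 11 gained one and 13 turned direction. Of 259 counts of receptors past the test, 237 stayed within 1.5 times. In KO against WT thymic Treg cells the count of 2 became 4 with limma voom and 4 with the correlated replicate block. In rTreg cells it became 1 with the proportion of reads outside genes as a covariate and ranged from 1 to 2 without 1 library. In aTreg cells the count of 0 became 1 with DESeq2, with only the groups compared and with the read-share covariate. The count for the difference between thymic Treg and CD4SP effects became 0 with only the groups compared and ranged from 0 to 1 without 1 library. With the myeloid covariate the counts became 2 for rTreg against thymic Treg cells and 3 for aTreg against rTreg cells, in WT and in KO alike. No reversed value passed the test. For the difference of Il18r1 effects between thymic Treg and rTreg cells they were 0.44 with the read-share covariate and 0.0215 without KO thymic Treg libraries 1 and 2. Il18rap in KO rTreg against KO thymic Treg cells was 0.12 with the myeloid covariate. Without 1 library, Il18r1 in KO CD4SP cells ranged from -0.0139 to 0.174, the mean Il1r1 effect from -0.32 to 0.26 and the mean Il1rl2 effect from -0.0579 to 0.355. The mean Il1r1 effect was 0.0118 with limma voom and 0.0132 with the correlated replicate block, and the mean Il1rl2 effect was -0.0254 without KO thymic Treg libraries 1 and 2. The cause was not tested.

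The replicate block used the number alone between genotypes, which share numbers but not animals, and genotype and number together within one. It changed no receptor call in the contrasts where every same-numbered pair correlated above 0.1. With the replicate block 3 receptors passed in KO thymic Treg cells, because Il18rap passed there (0.92, adjusted p = 0.0494, edgeR), and no count of receptors moved by over 1.5 times. Each library correlated best with its own number in 74 of 84 checks, a hint from the data and not from the design. Depth limits Il1r1 in CD4SP, rTreg and thymic Treg cells, and Il1r2 and Il1rl1 in CD4SP cells, which had few counts. Il1r1 also varied between libraries, from 11 to 99 counts in WT thymic Treg cells and from 63 to 154 in KO aTreg cells.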
